A study of Mus musculus with 6 samples.

Results

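The 7 genes described here, Fam13a, Cobll1, Grb14, Tbx15, Lyplal1, Plxnd1 and Rspo3, lie at or next to places in the genome where human association studies found variants linked to the distribution of body fat. They were picked by symbol from the 35122 Ensembl mouse genes of the deposited count table, with no cutoff on a measured value, although earlier results of these data, in which the study itself names Fam13a, were known when they were picked. All 7 were in the table, and 5 of them had enough counts to be tested. RNA was sequenced from the adipocyte fraction, the layer of epididymal fat that floats after digestion with collagenase, of 3 control mice (PU.1 fl/fl) and 3 aPU.1KO mice (AdipoqCre PU.1 fl/fl), with 1 library per mouse. The mice were C57BL/6 males on standard chow, 10 to 11 months old by the labels and older than a year by the study's text. In every mouse an exon of Spi1, the gene for the ETS transcription factor PU.1, was flanked by loxP sites, and only the aPU.1KO mice also carried Cre recombinase under the adiponectin promoter, which is active in adipocytes. Cre made from this promoter is meant to leave the exon intact in other cell types. The study says that some of these, such as macrophages, might have remained in the floating layer. The control mice lacked the Cre transgene, so that the deletion and the presence of Cre cannot be told apart.

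Fat can be stored around the hips and thighs or around the organs of the abdomen, and this distribution is inherited in part separately from total fat mass. The genes at these loci have no common pathway. Plxnd1 encodes a receptor for semaphorins, guidance signals that also direct vessel growth. Fam13a encodes a protein linked to insulin signaling in adipocytes, and Cobll1 a relative of the actin nucleator cordon-bleu. Grb14 encodes an adaptor that binds the activated insulin receptor and inhibits it, Lyplal1 a serine hydrolase related to the enzymes that remove palmitate from proteins, Tbx15 a T-box transcription factor of mesodermal development, and Rspo3 a secreted factor that strengthens Wnt signaling.

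Total counts were between 20550252 and 24310144 in 5 libraries and 69283842 in control mouse 1. Normalized counts are in CPM, counts per 1000000 counts of the library after scaling by the TMM method of edgeR. Spi1 was at 6.35 to 26.7 CPM in the control mice and at 1.22 to 4.17 CPM in the aPU.1KO mice. Its log2 fold change was -2.75 (SE, the standard error, 0.64, edgeR adjusted p = 0.0788, DESeq2 adjusted p = 7.65e-05). The counts are per gene, so that they include reads of exons that the deletion leaves in place. Adipocyte markers (12 genes, among them Adipoq, Plin1 and Fabp4) summed to 46301 to 50574 CPM in the control mice and to 56301 to 64889 CPM in the aPU.1KO mice, and all 12 were detected in every library. Macrophage markers (12 genes) summed to 476 to 1726 CPM in controls and 207 to 330 CPM in aPU.1KO mice, and progenitor markers (11 genes) to 1362 to 1841 and 739 to 1067 CPM. Macrophages also express Spi1. In both groups mouse 2 had the lowest Spi1, 6.35 and 1.22 CPM, and the lowest macrophage sum, 476 and 207 CPM. The part of macrophages in the Spi1 values was not tested. The sums of 10 endothelial markers overlapped, at 676 to 971 and 401 to 861 CPM, as did those of 8 mural markers, at 532 to 779 and 416 to 550 CPM. Markers of liver (8 genes) summed to 39.4 to 65.5 CPM in controls and 17.2 to 23.4 CPM in aPU.1KO mice. Those of mesothelium (9 genes) summed to 7.06 to 8.90 CPM in aPU.1KO mice and overlapped with the control sums, and those of epididymis (8 genes) did not exceed 1.23 CPM, with 4 of them at 0 in every library. In such mixed RNA, fewer cells of a type and less RNA per cell cannot be told apart, and the part of these other cells in the results below was not tested except where a value is given.

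The upstream sequences of the members that hold letters of the PU.1 motif are shown first, since PU.1 is the factor removed from the adipocytes. The windows were read 5′ to 3′ from RefSeq on GRCm38.p6, whose table gave a window for Plxnd1, Fam13a, Lyplal1, Grb14 and Cobll1. The letters searched were GAGGAA, a core that PU.1 is known to bind, on both strands, in windows from 250 bases before to 50 bases after the start site. The matches are in capitals, and the 250 bases before the start site are printed for the 3 genes with a match.
Plxnd1: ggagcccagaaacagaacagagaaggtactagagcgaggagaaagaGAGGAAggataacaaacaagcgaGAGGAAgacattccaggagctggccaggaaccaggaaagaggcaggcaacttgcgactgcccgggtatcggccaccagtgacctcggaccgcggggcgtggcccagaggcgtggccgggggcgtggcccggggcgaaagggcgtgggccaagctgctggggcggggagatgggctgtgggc
Fam13a: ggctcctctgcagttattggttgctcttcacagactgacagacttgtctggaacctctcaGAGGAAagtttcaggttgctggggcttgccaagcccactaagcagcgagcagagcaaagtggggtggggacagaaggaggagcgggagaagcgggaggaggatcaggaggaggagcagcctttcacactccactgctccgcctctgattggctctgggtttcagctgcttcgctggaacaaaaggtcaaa
Lyplal1: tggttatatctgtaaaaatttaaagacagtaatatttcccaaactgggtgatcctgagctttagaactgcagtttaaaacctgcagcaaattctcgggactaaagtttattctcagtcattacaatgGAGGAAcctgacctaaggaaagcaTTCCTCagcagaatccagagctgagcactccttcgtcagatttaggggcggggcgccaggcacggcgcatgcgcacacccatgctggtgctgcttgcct
The Plxnd1 sequence is chr6:115995006-115995255 on the minus strand and holds 2 matches, which begin at -204 and -181 from the start site. The Fam13a sequence is chr6:59024503-59024752, also on the minus strand, with 1 match beginning at -190. The Lyplal1 sequence is chr1:186117311-186117560, minus strand, with 1 match on each strand, beginning at -123 and -99. The windows of Grb14 and Cobll1 held none. GAGGAA or its complement was in 28.3% of all 32851 windows of this length, so that 3 of 5 windows is a description of these genes and not a sign of binding. The longer string GAGGAAGT was in 3.20% of all windows and in none of the 5.

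Plxnd1 fell in the adipocyte fraction of aPU.1KO mice, and was the 1 member that edgeR called. Its normalized counts were 154.7, 161.5 and 148.1 CPM in control mice 1, 2 and 3, and 105.2, 92.8 and 90.1 CPM in aPU.1KO mice 1, 2 and 3. Every aPU.1KO mouse was below every control mouse, and the spread within each group was small beside the gap between them. The mean was 154.7 ± 6.70 CPM (SD, n = 3) in control and 96.0 ± 8.02 CPM (SD, n = 3) in aPU.1KO mice, a log2 fold change of -0.69 (SE 0.09, 95% confidence interval -0.89 to -0.48), or 37.9% less. Its adjusted p was 0.0491 by edgeR's quasi-likelihood test, just under the threshold of 0.05, and 2.56e-08 by DESeq2. At this threshold edgeR called 33 of 13925 genes, which is 0.237% of those tested, and Plxnd1 was the only member among them. The call was lost with at least 10 counts required in every library (adjusted p = 0.0752), with control mouse 1 thinned to the median depth (adjusted p = 0.0504), and when control mouse 1, control mouse 3 or any aPU.1KO mouse was left out, with log2 fold changes of -0.77 to -0.64 over the fits without a mouse and the highest adjusted p, 0.313, without control mouse 1.

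**Figure D1:**
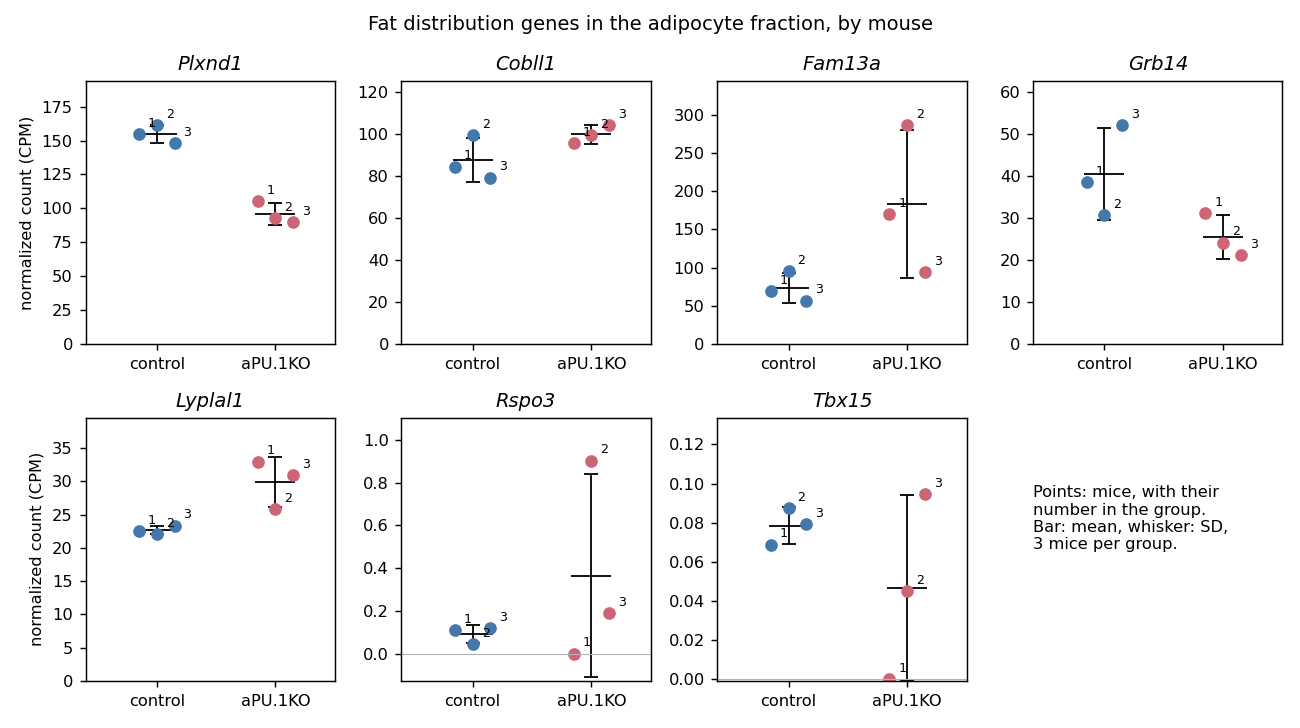
Normalized counts (CPM, linear axes of different height) of the 7 genes in each of the 6 mice; numbered points are mice, the bar is the group mean and the whisker the SD over 3 mice. The aPU.1KO mice lay below all controls for Plxnd1 (90.1 to 105.2 against 148.1 to 161.5 CPM) and above them for Lyplal1, and the groups overlapped for the other 5 genes.

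Plxnd1 (ENSMUSG00000030123) spans chr6:115954811-115995005 on the minus strand of GRCm38. Its nearest tested protein-coding neighbors did not pass the test. Ift122, a gene of transport in cilia 28111 bp away, was at 11.5 ± 0.547 CPM (SD, n = 3) in control and 12.6 ± 1.09 CPM in aPU.1KO mice, with a log2 fold change of 0.14 (SE 0.12, edgeR adjusted p = 0.489). Tmcc1, 23605 bp away on the other side, had a log2 fold change of -0.06 (SE 0.15, edgeR adjusted p = 0.840).

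Plexin-D1 is known from endothelial cells and macrophages, so the markers of both are given beside it. Of the 12 macrophage markers, 11 were lower in aPU.1KO mice at an unadjusted p under 0.05, beside 13.7% of all tested genes, 1 of them (Mrc1, the mannose receptor) at an adjusted p under 0.05, and their median log2 fold change was -2.21. Among the 3 control mice, control mouse 2 had the lowest sum, 476 CPM, and the highest Plxnd1, 161.5 CPM, while control mice 1 and 3 had sums of 1726 and 1653 CPM and Plxnd1 at 154.7 and 148.1 CPM. Of the 10 endothelial markers, all had a negative log2 fold change, 2 of them (Cdh5 and Vwf) at an unadjusted p under 0.05, near that 13.7%, with a median of -0.49. The endothelial sums of aPU.1KO mice 1 and 3, at 401 and 543 CPM, were below every control mouse, and that of aPU.1KO mouse 2, at 861 CPM, was above those of control mice 1 and 3, with Plxnd1 at 105.2, 90.1 and 92.8 CPM in these 3 mice. The part of either cell type in the Plxnd1 result was not tested.

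**Figure D2:**
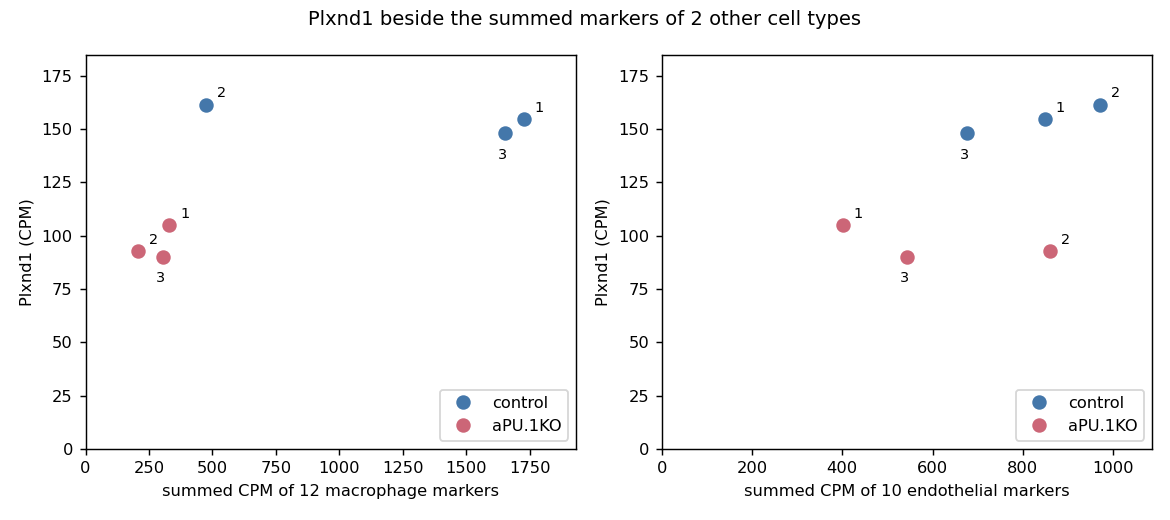
Plxnd1 (CPM) in each mouse against the summed CPM of 12 macrophage markers (left) and of 10 endothelial markers (right); each numbered point is 1 mouse and both axes are linear from 0. Control mouse 2 had a macrophage sum of 476 CPM with Plxnd1 at 161.5 CPM, and aPU.1KO mouse 2 an endothelial sum of 861 CPM with Plxnd1 at 92.8 CPM.

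The other genes of the semaphorin pathway were described with a list of 18 ligands, neuropilin co-receptors, plexins and plexin-linked GTPases, of which 14 were tested. None passed an adjusted p of 0.05 by edgeR. DESeq2, which called 11.0% of the genes to which it gave an adjusted p, called 8, of which 7 were lower. With an unadjusted p under 0.05 in edgeR, 8 were lower and 1 higher, beside 13.7% of all tested genes lower and 11.9% higher at that level. The median log2 fold change of the list was -0.50, and that of all tested genes was 0.01. The lowest p-values belonged to the co-receptor Nrp2 and to the receptors Plxnc1 and Plxnb2. Nrp2 was at 70.4 ± 12.8 CPM (SD, n = 3) in control and 31.6 ± 4.63 CPM in aPU.1KO mice, a log2 fold change of -1.16 (SE 0.17, edgeR adjusted p = 0.0701). The log2 fold change was -2.17 for Plxnc1 (SE 0.39, edgeR adjusted p = 0.0724) and -1.75 for Plxnb2 (SE 0.36, edgeR adjusted p = 0.0766). Sema3e, a ligand of plexin-D1, named here for that role after its values were seen, was not tested, at 0.457 ± 0.301 CPM in controls and 0.358 ± 0.219 CPM in aPU.1KO mice. Sema3c, another semaphorin of the list and also named after its values were seen, was at 176.5 ± 6.09 CPM in controls. In aPU.1KO mice it was at 145.4 ± 39.2 CPM (edgeR adjusted p = 0.402). The macrophage sum was lower in the same mice as Nrp2, Plxnc1 and Plxnb2. Among the control mice these genes were lowest in mouse 2, at 56.3, 4.60 and 24.7 CPM, where the macrophage sum was lowest and Plxnd1 highest. The part of macrophages in the list's values was not tested.

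**Figure D3:**
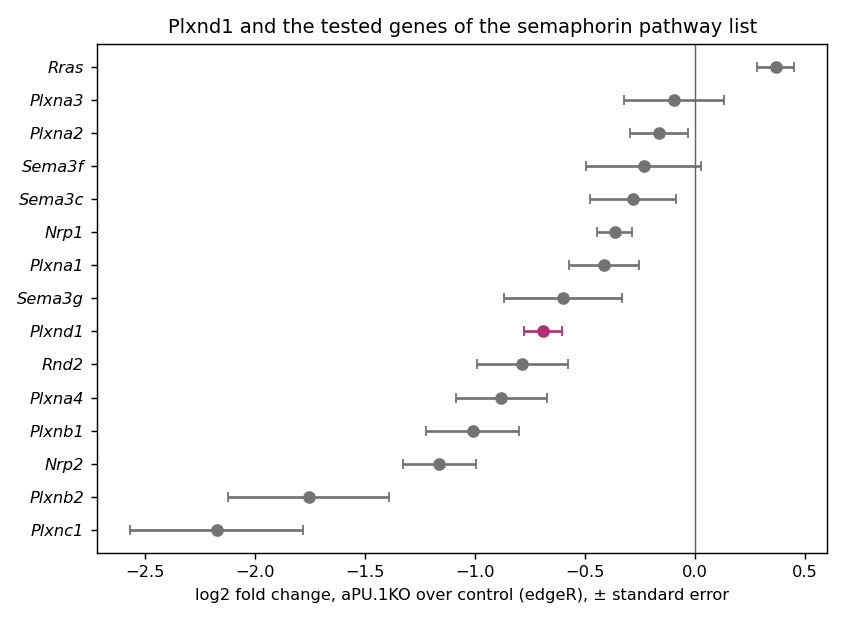
Log2 fold change, aPU.1KO over control, from edgeR with its standard error as the bar (3 mice per group), for Plxnd1 (purple) and the 14 tested genes of the semaphorin pathway list (gray). Of the 14 list genes, 13 lay to the left of 0 and 1 to the right; Plxnd1 lay at -0.69.

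Fam13a had the largest difference in mean CPM of the 7 genes, and also the widest spread in CPM within the aPU.1KO group. It was at 69.4, 95.1 and 57.1 CPM in control mice 1, 2 and 3, and at 169.7, 286.7 and 94.6 CPM in aPU.1KO mice 1, 2 and 3. The groups overlapped, since aPU.1KO mouse 3 was just below control mouse 2, whereas aPU.1KO mice 1 and 2 were above all others. The mean was 73.8 ± 19.4 CPM (SD, n = 3) in control and 183.7 ± 96.8 CPM (SD, n = 3) in aPU.1KO mice. The log2 fold change was 1.32 (SE 0.40, 95% confidence interval 0.37 to 2.26), a fold of 2.49, with an unadjusted p of 0.0134 and an adjusted p of 0.111 by edgeR's quasi-likelihood test. Of all tested genes, 0.546% had a larger positive log2 fold change. In DESeq2 its log2 fold change was 1.30 and its adjusted p 0.00825, and that test called 11.0% of the genes to which it gave an adjusted p. Without aPU.1KO mouse 2 the edgeR log2 fold change was 0.84 (adjusted p = 0.172), and with any other mouse left out it was between 1.15 and 1.63. By edgeR the change in Fam13a therefore did not pass the threshold after adjustment over all tested genes. The study itself used DESeq2 and gives a log fold change of 1.3 for Fam13a.

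Fam13a (ENSMUSG00000037709) spans chr6:58932090-59024549 on the minus strand of GRCm38. Its neighbor Herc3, a ubiquitin ligase gene 11691 bp away, had a log2 fold change of -0.18 (SE 0.09, edgeR adjusted p = 0.249). Tigd2, 184320 bp away on the other side, had one of 0.15 (SE 0.09, edgeR adjusted p = 0.360). The neighbors thus differed little between the groups, and neither passed the test.

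**Figure D4:**
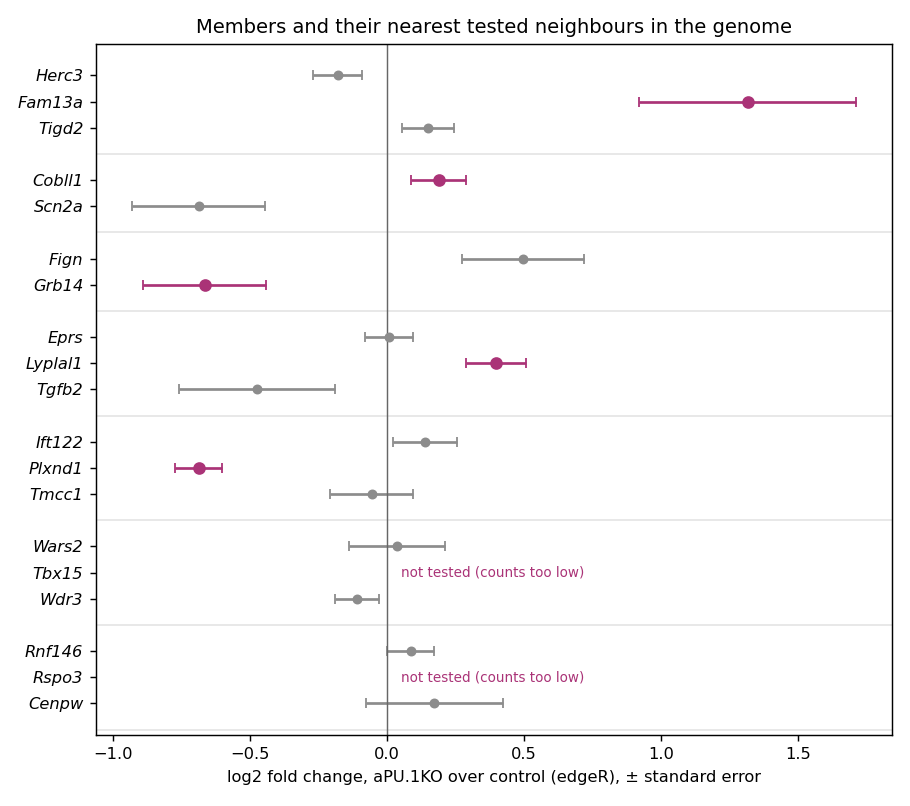
Log2 fold change, aPU.1KO over control, from edgeR with its standard error as the bar (3 mice per group), for the members (purple) and the nearest tested protein-coding gene on each side in the genome (gray), grouped by locus. Cobll1 and Grb14 are neighbors of each other; Fam13a at 1.32 lies far from Herc3 at -0.18 and Tigd2 at 0.15, and Tbx15 and Rspo3 had too few counts to be tested.

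The genes whose profile over the 6 mice was closest to that of Fam13a were Cldn22, a claudin of tight junctions, and Acacb, which encodes the mitochondrial acetyl-CoA carboxylase that makes the inhibitor of fatty acid entry into mitochondria. Closeness was measured as the root mean square of the difference in centered log2 CPM over 6 libraries, among 11892 genes, and was 0.121 for Cldn22 and 0.125 for Acacb, where Fam13a itself varied by 0.788 around its mean. Acacb was at 57.2, 79.3 and 40.1 CPM in control mice and had a mean of 154.5 ± 98.6 CPM (SD, n = 3) in aPU.1KO mice. As for Fam13a, mouse 2 was the highest of each group. Its log2 fold change was 1.39 (SE 0.48, edgeR adjusted p = 0.135). Cldn22 had a log2 fold change of 1.45 (SE 0.45, edgeR adjusted p = 0.114). These genes were chosen for their likeness, so the likeness has no test. The profile of Plxnd1 was closest to those of Il2ra, the alpha chain of the interleukin-2 receptor (0.0628), and Grk5, a G protein-coupled receptor kinase (0.0814). Grk5 was at 47.9 ± 3.77 CPM (SD, n = 3) in control and 29.5 ± 2.48 CPM in aPU.1KO mice, with no overlap and an edgeR adjusted p of 0.0677.

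**Figure D5:**
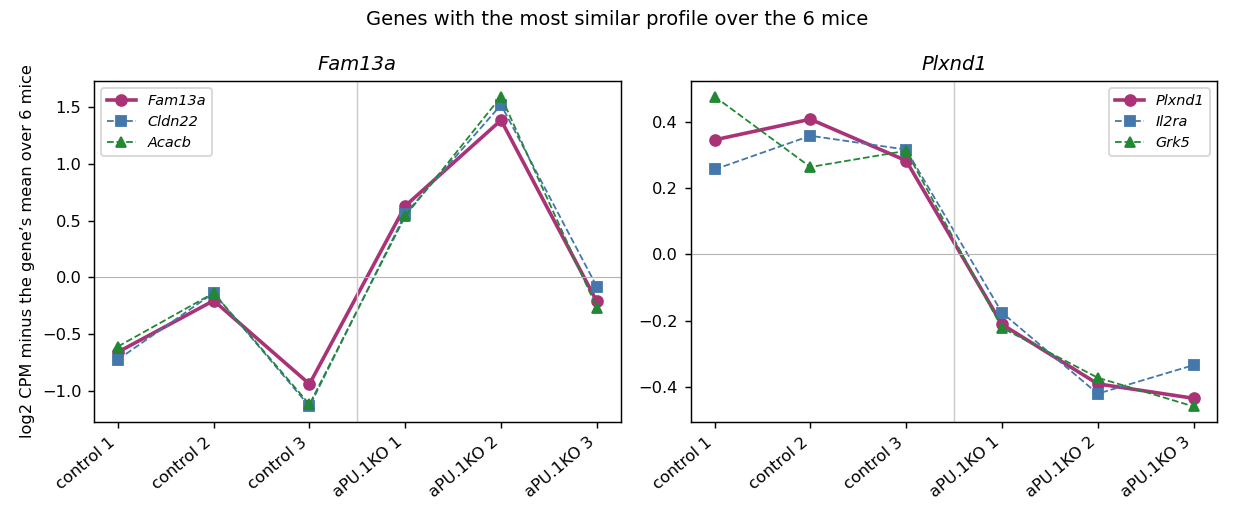
Log2 CPM minus the gene's own mean over the 6 mice, for Fam13a with Cldn22 and Acacb (left) and for Plxnd1 with Il2ra and Grk5 (right); each marker is 1 mouse and the vertical line parts control from aPU.1KO. For Fam13a and its like genes mouse 2 was the highest of each group, while the Plxnd1 profile was a step between the groups.

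The relatives of Fam13a and Cobll1 were read from a list of 7 genes, of which 6 were tested and none passed an adjusted p of 0.05 by edgeR or DESeq2. At an unadjusted p under 0.05, 3 were lower and 0 higher, beside 13.7% and 11.9% of all tested genes. Fam13b, a paralog of Fam13a, had a log2 fold change of -0.27 (SE 0.10, edgeR adjusted p = 0.146), of the opposite sign to Fam13a, and Fam13c had one of -0.16. Cobl, the cordon-bleu gene itself, was near 1 CPM or below, at 0.985 ± 0.220 CPM in controls and 0.366 ± 0.260 CPM in aPU.1KO mice. Its log2 fold change was -1.41 (SE 0.51, edgeR adjusted p = 0.146). Dbnl, an actin-binding adaptor, had a log2 fold change of -0.23, and the endocytic adaptors Pacsin2 and Pacsin3 had ones of -0.04 and 0.62. Pacsin1 was not tested.

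Cobll1 and Grb14 are neighbors on chromosome 2, both on the minus strand, 63351 bp apart, at what is a single locus in human association studies. Cobll1 (ENSMUSG00000034903) spans chr2:65088339-65239403 and Grb14 (ENSMUSG00000026888) chr2:64912476-65024987 on GRCm38. Cobll1 was at 84.7, 99.5 and 79.4 CPM in control mice 1, 2 and 3 and at 95.9, 99.6 and 104.5 CPM in aPU.1KO mice 1, 2 and 3. The groups overlapped, with control mouse 2 inside the aPU.1KO range. The mean was 87.8 ± 10.4 CPM (SD, n = 3) in control and 100.0 ± 4.35 CPM (SD, n = 3) in aPU.1KO mice, a log2 fold change of 0.19 (SE 0.10, 95% confidence interval -0.05 to 0.43) with an edgeR adjusted p of 0.286. A difference in Cobll1 was not detectable with these mice. Over all alternatives its log2 fold change was between 0.11 and 0.28 and none passed the threshold. The genes most like it in profile, Rps6kb1 (the kinase S6K1, 0.0201) and Adat2 (a tRNA deaminase, 0.0230), had log2 fold changes of 0.18 and 0.19.

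Grb14 was lower in mean in the aPU.1KO mice. It was at 38.7, 30.7 and 52.2 CPM in control mice 1, 2 and 3 and at 31.3, 24.2 and 21.2 CPM in aPU.1KO mice 1, 2 and 3. The groups overlapped by a narrow margin, since aPU.1KO mouse 1 was just above control mouse 2, and control mouse 3 was the highest. The mean was 40.6 ± 10.9 CPM (SD, n = 3) in control and 25.6 ± 5.20 CPM (SD, n = 3) in aPU.1KO mice. The log2 fold change was -0.67 (SE 0.22, 95% confidence interval -1.20 to -0.13), with an unadjusted p of 0.0215 and an adjusted p of 0.131 in edgeR. The adjusted p from DESeq2 was 0.0497. Grb14 thus had about the same estimate as Plxnd1, with an SE of 0.22 against 0.09, and did not pass the edgeR threshold. The genes closest in profile were Insyn1, an inhibitory synapse factor (0.0673), and Rfc5, a subunit of the clamp loader of DNA replication (0.116).

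The ratio of Cobll1 to Grb14 within a library needs no scaling between libraries. It was 2.19, 3.24 and 1.52 in control mice 1, 2 and 3 and 3.06, 4.11 and 4.94 in aPU.1KO mice 1, 2 and 3. The groups overlapped, and the log2 difference was 0.84 (exact two-sided permutation p = 0.2, where 3 against 3 mice cannot go below 0.1). The outer neighbors were weakly expressed: Scn2a, a sodium channel gene beyond Cobll1, had a log2 fold change of -0.69 (SE 0.24, edgeR adjusted p = 0.143), and Fign, beyond Grb14, one of 0.49 (SE 0.22, edgeR adjusted p = 0.219).

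Grb14 acts at the insulin receptor, and 14 genes of the receptor, its adaptors and its inhibitors were read beside it. All 14 were tested and none passed an adjusted p of 0.05 by edgeR, while at an unadjusted p under 0.05, 4 were higher and 3 lower, with a median log2 fold change of 0.21. The shares of all tested genes at that level were 11.9% higher and 13.7% lower. DESeq2 called 1 higher and 2 lower, beside 11.0% in either direction of the genes to which it gave an adjusted p. Insr, the receptor itself, had one of 0.21 (edgeR adjusted p = 0.325; named after its values were seen). The lowest p-values belonged to Enpp1, a membrane protein that inhibits the receptor, the phosphatase gene Ptpn1, and the adaptor gene Sh2b2. Enpp1 was at 4.19 ± 2.01 CPM (SD, n = 3) in control and 1.25 ± 0.423 CPM in aPU.1KO mice, a log2 fold change of -1.76 (SE 0.47, edgeR adjusted p = 0.0946). Ptpn1, which encodes PTP1B, had a log2 fold change of -0.39 (SE 0.12, edgeR adjusted p = 0.107), and Sh2b2, which encodes the adaptor APS, one of 0.81 (SE 0.26, edgeR adjusted p = 0.125). The list thus held genes on both sides, with none beyond the adjusted threshold.

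Lyplal1 was higher in mean in the aPU.1KO mice by a small amount. It was at 22.6, 22.1 and 23.3 CPM in control mice 1, 2 and 3 and at 32.9, 25.8 and 30.9 CPM in aPU.1KO mice 1, 2 and 3. In CPM every aPU.1KO mouse was above every control mouse, and the control mice were close to each other. In TPM, the level per length used below, the groups overlapped, with aPU.1KO mouse 2 at 39.5 TPM, below the control range of 45.4 to 49.5 TPM. TPM is scaled to the sum of each library without TMM factors, and a gene's length is the same in every mouse. The mean was 22.7 ± 0.613 CPM (SD, n = 3) in control and 29.9 ± 3.70 CPM (SD, n = 3) in aPU.1KO mice. The log2 fold change was 0.40 (SE 0.11, 95% confidence interval 0.14 to 0.66), with an unadjusted p of 0.00859 and an adjusted p of 0.0980 in edgeR and of 0.0536 in DESeq2. Of all tested genes, 16.7% had no overlap with the aPU.1KO mice higher and 15.5% none with them lower, so that 1 member of 5 in each direction is near these shares.

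Lyplal1 (ENSMUSG00000039246) spans chr1:186087731-186117310 on the minus strand of GRCm38. Its nearest tested neighbors are far away: Eprs, a tRNA synthetase gene 659370 bp off, had a log2 fold change of 0.01 (SE 0.09), and Tgfb2, 505481 bp off, one of -0.48 (SE 0.29, edgeR adjusted p = 0.336). Of 7 related hydrolases and depalmitoylating enzymes, all were tested and none was called at an adjusted p under 0.05, or at an unadjusted p under 0.05, by edgeR. DESeq2 also called none of them. Their log2 fold changes were 0.18 for Lypla1, 0.17 for Lypla2, 0.05 for Abhd17a, 0.09 for Abhd17b, -0.17 for Abhd17c, -0.06 for Ppt1 and -0.05 for Ppt2. The profile of Lyplal1 was closest to those of Cyb5d2, a heme-binding protein gene (0.0389), and 3110040N11Rik (0.0512), both without overlap between the groups.

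Tbx15 and Rspo3 were at or near the floor of detection, taken as 3 counts per library, and were not tested. Tbx15 (ENSMUSG00000027868, chr3:99240381-99354259, plus strand, GRCm38) had 5, 2 and 2 counts in control mice 1, 2 and 3 and 0, 1 and 2 counts in aPU.1KO mice 1, 2 and 3. The highest count was in the deepest library, and the others were at the floor. The count of 0 allows up to 0.152 CPM in aPU.1KO mouse 1. Rspo3 (ENSMUSG00000019880, chr10:29452416-29535867, minus strand, GRCm38) had 8, 1 and 3 counts in control mice and 0, 20 and 4 counts in aPU.1KO mice. Of its 24 counts in the aPU.1KO group, 20 came from mouse 2. No difference between the groups was detectable at this depth for these genes, and a fold from so few counts would not be informative. These limits cover counting error only. Rspo3 shares 406 bp of identical sequence with the antisense gene Gm48159, which is not in the table, so that its few reads cannot be assigned with certainty.

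In mice Tbx15 is known for higher levels in subcutaneous than in epididymal fat. Wars2, which encodes the mitochondrial tryptophanyl-tRNA synthetase and ends 1194 bp before Tbx15, was measured at 6.95 ± 0.156 CPM (SD, n = 3) in control and 7.13 ± 1.39 CPM in aPU.1KO mice, with a log2 fold change of 0.04 (SE 0.18, edgeR adjusted p = 0.914). Wdr3, on the other side, had a log2 fold change of -0.11 (SE 0.08). Of 8 other T-box genes, 3 were tested and none passed an adjusted p of 0.05 by edgeR. DESeq2 called 1, Tbx18, beside 11.0% of the genes to which it gave an adjusted p. All 3 were lower at an unadjusted p under 0.05, as were 13.7% of all tested genes, with log2 fold changes of -1.26 for Tbx18 (edgeR adjusted p = 0.0825), -0.93 for Tbx2 (edgeR adjusted p = 0.145) and -0.32 for Tbx3 (edgeR adjusted p = 0.105). Progenitor and macrophage marker sums were lower in the same mice, and their part in these values was not tested.

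Rspo3 acts through the receptors LGR4 to LGR6 and the ubiquitin ligases ZNRF3 and RNF43, which remove Wnt receptors from the cell surface. Of 20 genes of this axis 14 were tested, and none passed an adjusted p of 0.05 by edgeR, while at an unadjusted p under 0.05, 2 were higher and 0 lower, beside 11.9% and 13.7% of all tested genes. The 2 were Tcf7l2, a transcription factor of the Wnt pathway, and Znrf3. DESeq2, which called 11.0% of the genes to which it gave an adjusted p, called both. Tcf7l2 was at 21.9 ± 0.910 CPM (SD, n = 3) in control and 29.0 ± 1.59 CPM in aPU.1KO mice, a log2 fold change of 0.40 (SE 0.08, edgeR adjusted p = 0.0768), with no overlap. Znrf3 was at 11.3 ± 0.282 and 15.1 ± 1.46 CPM, a log2 fold change of 0.41 (SE 0.11, edgeR adjusted p = 0.0980), also with no overlap. The next lowest p belonged to the Wnt receptor gene Fzd8, with a log2 fold change of -0.26 (SE 0.14, edgeR adjusted p = 0.293). Lgr4, named here as the receptor after its values were seen, was at 95.6 ± 4.94 CPM in controls and 86.8 ± 10.6 CPM in aPU.1KO mice. The neighbors of Rspo3, Rnf146 (a ubiquitin ligase gene, log2 fold change 0.09) and Cenpw (a centromere protein gene, 0.17), had edgeR adjusted p-values of 0.563 and 0.694.

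The members were ranked by level per length, as counts per base of merged exons. These were scaled to a sum of 1000000 in each library (TPM), without TMM factors. In control mice the order was Plxnd1 at 70.0 ± 1.89 TPM (SD, n = 3), Lyplal1 at 47.5 ± 2.05, Cobll1 at 34.8 ± 3.50, Fam13a at 23.2 ± 5.66 and Grb14 at 18.7 ± 5.29 TPM, followed by Rspo3 at 0.0978 and Tbx15 at 0.0692 TPM. Ranges of neighbors in this order overlapped for Fam13a with Grb14 and for Rspo3 with Tbx15 and were apart for the rest. In aPU.1KO mice the order was Lyplal1 at 53.6 ± 12.3 TPM, Fam13a at 46.9 ± 18.9, Plxnd1 at 37.0 ± 5.52, Cobll1 at 33.7 ± 5.24 and Grb14 at 9.97 ± 2.27 TPM, with overlap among the neighbors from Lyplal1 to Cobll1. The order depends on the length used: with the longest annotated transcript, 4 of the 7 places changed in control mice, Plxnd1 kept the first, and Cobll1 and Grb14 came next.

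Adipocyte markers as a group took a larger share of the aPU.1KO libraries. The summed CPM of the 12 adipocyte markers was 48107 ± 2212 (SD, n = 3) in control and 60498 ± 4297 (SD, n = 3) in aPU.1KO mice, with no overlap and a log2 difference of 0.33 (exact two-sided permutation p = 0.1, the lowest possible). Lpl and Fabp4 made up much of the sum. Lep, the leptin gene, went the other way, with a log2 fold change of -0.77, and the groups overlapped for Dgat2. A larger share of adipocyte RNA and more marker RNA per adipocyte cannot be told apart. Each tested member was therefore also divided by this sum. Per 1000 CPM of adipocyte markers, Plxnd1 was at 3.34, 3.19 and 3.12 in control mice and 1.74, 1.43 and 1.60 in aPU.1KO mice, a log2 difference of -1.02 with no overlap (exact two-sided permutation p = 0.1). Grb14 was at 0.836, 0.608 and 1.10 in control mice and 0.519, 0.373 and 0.376 in aPU.1KO mice, a log2 difference of -0.98 (exact two-sided permutation p = 0.1). On this scale the groups did not overlap for Grb14, as they had in CPM. The marker sum was higher in every aPU.1KO mouse, so dividing by it lowers any gene in that group, by 0.33 in mean log2. The shift from the CPM values comes from this divisor and is not a separate result.

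For Fam13a the log2 difference relative to adipocyte markers was 0.87 (exact two-sided permutation p = 0.2), with aPU.1KO mouse 3, at 1.68, inside the control range of 1.20 to 1.88. Without aPU.1KO mouse 2 the log2 difference was 0.53. For Lyplal1 it was 0.06 (exact two-sided permutation p = 0.6), and its sign changed under some alternatives, to -0.04 with the mean log2 CPM of the markers and to -0.01 and -0.02 without aPU.1KO mouse 1 and 3. For Cobll1 it was -0.14 (exact two-sided permutation p = 0.3), of the opposite sign to its log2 fold change in CPM. It was -0.08 without control mouse 2 or aPU.1KO mouse 2, -0.22 without aPU.1KO mouse 3 and -0.23 with the mean log2 CPM of the markers. Over the 6 ratios tested, that of Cobll1 to Grb14 included, the Benjamini-Hochberg adjusted values of these exact permutation tests were between 0.3 and 0.6, and none could have passed with 3 mice per group.

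Of the 7 members together, 1 passed the adjusted threshold in edgeR, and 3 did in DESeq2 (Fam13a, Grb14 and Plxnd1). DESeq2 called 11.0% of the genes to which it gave an adjusted p. At an unadjusted p under 0.05 by edgeR, 2 of the 5 tested members were higher and 2 lower, beside 11.9% and 13.7% of all tested genes. A list of 31 other genes at human fat distribution loci was read for comparison, of which 25 were tested. None passed an adjusted p of 0.05 by edgeR, while at an unadjusted p under 0.05, 4 were higher and 5 lower, and their median log2 fold change was -0.02. The shares of all tested genes at that p were 11.9% higher and 13.7% lower. DESeq2 called 2 higher and 5 lower, beside 11.0% in either direction of the genes to which it gave an adjusted p. The lowest p-values belonged to Stab1, a scavenger receptor gene of macrophages and sinusoidal endothelium, Ly86, which encodes the immune receptor partner MD-1, and Vegfa, the vascular growth factor gene. Stab1 had a log2 fold change of -1.42 (SE 0.22, edgeR adjusted p = 0.0718) and Ly86 one of -2.20 (SE 0.43, edgeR adjusted p = 0.0760), in the same direction as the macrophage sum, whose part was not tested. Vegfa was at 189 ± 39.8 CPM (SD, n = 3) in control and 351 ± 62.6 CPM in aPU.1KO mice, a log2 fold change of 0.90 (SE 0.19, edgeR adjusted p = 0.0766) with no overlap.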

How the data were processed

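RNA-seq of the adipocyte fraction of 3 control and 3 aPU.1KO mice was used. The authors ran Salmon on the reads, added up the transcripts of each gene and deposited estimated counts, which are whole numbers and entered every test without rounding. The submitters' processing notes name GRCm38; the Salmon version and the annotation are not given in the sources used here. Of 35122 genes, 35031 were matched to a symbol in GENCODE M21 on GRCm38, and the unmatched ones hold 0.0367% of all counts. Reads of paralogs and of overlapping genes can be split by the estimation: no other gene shared 100 bp at 95% identity with a member (BLAST 2.17.0) except for Rspo3, and Fam13a, Cobll1 and Rspo3 overlap exons of antisense genes by 78, 80 and 404 bp.

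The test was edgeR 4.0.16 in R 4.3.3 (glmQLFit and glmQLFTest after filterByExpr, with TMM factors and Benjamini-Hochberg adjustment over 13925 genes), and fold changes are aPU.1KO over control. Single ratios were compared by exact permutation over mice, with log2 values. The labels name single mice, numbered 1 to 3 here in label order, and no libraries of a group were duplicates (chi-square over its degrees of freedom at least 20.4). Alternatives were RLE and upper quartile factors, no filter, at least 10 counts in every library, DESeq2 1.42.0, limma-voom 3.58.1, leaving out each mouse, and control mouse 1 thinned to the median depth. The steps were tested on simulated data. Python 3.11.15 with matplotlib 3.10.9 drew the figures.

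The members and all lists were chosen with earlier results of these data known. Named are the 7 members, the 3 tested genes of each list with the lowest edgeR p (all tested genes of lists under 10), for each tested member the 2 genes with the most similar profile (average log2 CPM of at least 1), the nearest tested protein-coding gene on each side, and Spi1; single cell type markers were named after their values were seen, and other exceptions are stated. Sequences are from RefSeq (GRCm38.p6).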

Additional observations from a re-analysis of the deposited data

How the results depend on the processing

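No log2 fold change of a tested member changed direction in an alternative fit, and 1 ratio did, that of Lyplal1 to adipocyte markers. The direction of Cobll1 depended on the scale. Its log2 fold change in the main fit was 0.19, while its mean was 34.8 TPM in control and 33.7 TPM in aPU.1KO mice. The 33 genes called at an adjusted p under 0.05 became 146 without a filter on low counts, 5 with at least 10 counts in every library, 1833 with DESeq2, 19 with control mouse 1 thinned to the median depth, and 0 to 1193 with each mouse left out: 0 without control mouse 1 (1718 at an unadjusted p under 0.05) and 1193 without control mouse 2. RLE factors, upper quartile factors and limma-voom gave 31, 35 and 46. The count of members called, 1, became 3 with DESeq2, 0 with at least 10 counts in every library, 0 with the thinned library, and 0 to 1 with each mouse left out (1 only without control mouse 2). The log2 fold change of Plxnd1 was -0.71 with at least 10 counts in every library (adjusted p = 0.0752), -0.70 with the thinned library (adjusted p = 0.0504) and between -0.77 and -0.64 with each mouse left out (adjusted p = 0.0160 to 0.313), and the cause of the lost calls was not tested. With DESeq2, Fam13a at 1.30 and Grb14 at -0.68 passed the threshold. With the longest transcript as length, 4 of the 7 members changed place in the order of levels. The log2 difference of Fam13a relative to adipocyte markers was 0.53 to 1.23 with each mouse left out, and that of Lyplal1, 0.06, was -0.02 to 0.22, and -0.04 with the mean log2 CPM of the markers. Tbx15 and Rspo3 were removed by the filter, and in the fits that kept them, edgeR without a filter and DESeq2, neither passed the threshold (DESeq2 gave Tbx15 no adjusted p). With 3 mice per group, single-gene calls rest on few samples. No paired analysis was possible because the mouse numbers in the labels are not shared between the groups; the study describes its controls as littermates, and the labels do not tie mice to litters.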
